A study of Mus musculus with 6 samples.

Results

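The 6 genes Bnip3, Bnip3l, Fundc1, Mgarp, Fam162a and Higd1a encode mitochondrial proteins tied to the hypoxia-inducible factor HIF1, and were followed in Hif1a mutant and control hearts of mouse embryos. They were taken by symbol from a deposited table of 15118 genes. All 6 had a row, and no symbol repeated. They were chosen with the mutant and control values of these same hearts in view, so their differences between genotypes are described here without a test. RNA came from whole hearts of Black-Swiss embryos at E12.5 (embryonic day). The 3 Hif1a mutant hearts (numbered 5, 8 and 10) carried NKX2-5 Cre over a wild-type allele, with a null and a floxed Hif1a allele. The 3 control hearts (2, 5 and 9) carried the same Cre, with 1 floxed and 1 wild-type copy of Hif1a. Cre from the Nkx2-5 gene is made in cardiac progenitors and heart muscle, so the floxed allele is not expected to be recombined in cells outside that lineage. Every cell of a mutant heart carries the null allele, and recombined control cells keep a wild-type allele, so the groups compare lower with higher Hif1a gene dose and not null with intact hearts. Each library is a separate heart by its label, and nothing more is said of litters, so errors measure the spread between these hearts.

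HIF1 is a transcription factor whose alpha subunit is degraded when oxygen is plentiful and accumulates when oxygen is scarce. Mitophagy is the removal of mitochondria by autophagy. BNIP3, BNIP3L (also called NIX) and FUNDC1 are outer membrane receptors that tie a mitochondrion to the autophagosome by binding proteins of the LC3 and GABARAP family. BNIP3 and BNIP3L also belong to the BCL2 homology protein group with roles in cell death, and BNIP3L is known for clearing mitochondria from maturing red blood cells. MGARP, known also as HUMMR, acts in mitochondrial transport along microtubules in neurons under low oxygen. FAM162A, known also as HGTD-P, is a mitochondrial protein that promotes cell death in hypoxia, and HIGD1A is a small inner membrane protein that binds cytochrome c oxidase. Bnip3, Bnip3l, Mgarp, Fam162a and Higd1a are known as hypoxia-induced genes, while FUNDC1 is regulated in hypoxia mainly through phosphorylation of the protein.

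HIF1 binds DNA at a short core whose letters are ACGTG or GCGTG. The promoter windows of Bnip3, Fam162a and Mgarp are shown because these genes differed most in level or held most matches, 250 bases before to 50 bases after the annotated start, from RefSeq on GRCm38.p6, 5′ to 3′ on the gene's strand, with every match on either strand in capitals. Windows were found for 5 of the 6 genes, all but Bnip3l. All windows shown lie on the minus strand, at chr7:138909457-138909756, chr16:36071512-36071811 and chr3:51396498-51396797.
Bnip3: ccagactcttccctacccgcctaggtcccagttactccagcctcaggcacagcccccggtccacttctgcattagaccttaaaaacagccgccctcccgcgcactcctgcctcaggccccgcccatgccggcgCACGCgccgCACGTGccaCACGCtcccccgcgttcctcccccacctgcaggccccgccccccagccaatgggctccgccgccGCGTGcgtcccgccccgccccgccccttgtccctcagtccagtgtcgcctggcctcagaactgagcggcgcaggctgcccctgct
Fam162a: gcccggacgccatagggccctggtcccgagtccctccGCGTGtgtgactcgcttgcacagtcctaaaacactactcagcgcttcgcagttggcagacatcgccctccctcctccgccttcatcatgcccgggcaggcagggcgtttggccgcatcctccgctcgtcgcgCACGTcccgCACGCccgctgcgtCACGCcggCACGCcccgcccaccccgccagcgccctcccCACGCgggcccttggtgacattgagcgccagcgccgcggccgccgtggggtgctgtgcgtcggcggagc
Mgarp: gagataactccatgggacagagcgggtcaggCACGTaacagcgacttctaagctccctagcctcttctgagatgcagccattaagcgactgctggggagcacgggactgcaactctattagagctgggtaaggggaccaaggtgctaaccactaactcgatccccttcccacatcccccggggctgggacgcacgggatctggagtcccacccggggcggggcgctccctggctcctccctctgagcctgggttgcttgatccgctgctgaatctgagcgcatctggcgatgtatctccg

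The Bnip3 window held 5 matches, a pair of which overlap in a single palindrome read on both strands 107 and 108 bases before the start. The Fam162a window held 6 matches, 5 of them within 81 bases before the start. The Mgarp window held 1 match, 219 bases before the start, and the Higd1a window held 3. The Fundc1 window held 0 matches, but its annotated start lies 318 bases inside the gene's outermost end in GENCODE M21, so this window covers sequence within the annotated gene. The Higd1a start lies 566 bases and the Mgarp start 191 bases inside that end, against 13 for Bnip3 and 33 for Fam162a. Among 11398 windows of genes tested here, 62.1% held at least 1 match, 7.43% held 4 or more and 3.17% held 5 or more. Over all 32851 windows these shares were 43.8%, 3.86% and 1.66%. The core contains a CG pair, and the windows of Bnip3 and Fam162a held 27 and 39 CG pairs, against a median of 21 in the windows of tested genes. A match of these letters is not a measured binding site.

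**Figure D1:**
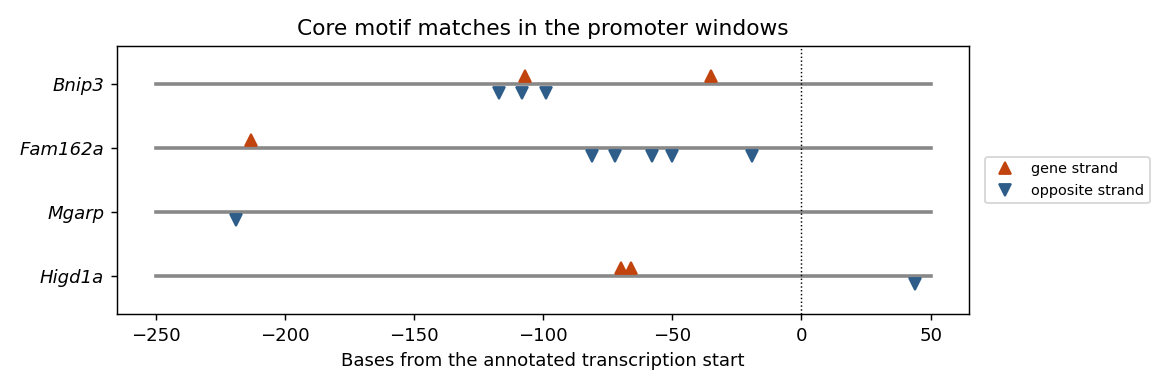
Matches to ACGTG or GCGTG in the promoter windows of Bnip3, Fam162a, Mgarp and Higd1a. The horizontal axis is the distance in bases from the annotated start, upward triangles are matches on the gene's strand and downward triangles matches on the opposite strand. Bnip3 has 5 and Fam162a 6 matches. The Mgarp match lies farthest upstream, 219 bases before the start.

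Levels are in RPKM, read counts scaled to exon length and library depth, as the authors deposited them, and allow comparison between genes. Changes are log2 differences, mutant minus control, on log2(RPKM + 1), a scale on which low genes show too small a change. The standard error (SE) comes from limma, a linear model fitted across all genes. The low values of the table imply between 100300000 reads (mutant 8) and 157500000 reads (mutant 10) per library. Hif1a itself measured 75.7, 55.0 and 77.7 RPKM in mutants 5, 8 and 10, against 61.1, 46.4 and 46.4 RPKM in controls 2, 5 and 9. That value covers the exons used together and does not check the deletion, since the sources used here do not say which exons the null and floxed alleles lack.

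The receptor genes Bnip3 and Bnip3l were lower in mutant hearts, and Bnip3 more so. Bnip3 (ENSMUSG00000078566, mm10 chromosome 7, 138890836 to 138909519, minus strand) measured 19.9, 16.5 and 14.6 RPKM in mutants 5, 8 and 10, against 83.3, 75.3 and 86.6 RPKM in controls 2, 5 and 9. The genotypes do not overlap, and the highest mutant heart lies far below the lowest control heart. The means were 17.0 ± 2.66 RPKM in mutant and 81.7 ± 5.78 RPKM in control hearts (SD, n = 3 each), a 4.81-fold lower mean in mutant hearts, with a log2 change of −2.21 ± 0.12 SE. On this scale it was the most negative change among 13080 genes in the fit, whereas with a pseudocount of 0.1 Mgarp stood lower, at −3.38 against −2.27 for Bnip3. Bnip3 stood above 82.3% of the listed genes in mutant hearts and above 96.1% in control hearts (medians over hearts). If all 2265 annotated exon bases were used, these levels rest on 3744 to 6359 reads per mutant heart and 23370.4 to 24588.7 reads per control heart, so counting error is small beside the spread between hearts.

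Bnip3l (ENSMUSG00000022051, chromosome 14, 66985239 to 67008877, minus strand) measured 27.9, 20.9 and 24.2 RPKM in mutants 5, 8 and 10, against 43.5, 37.0 and 38.0 RPKM in controls 2, 5 and 9. Every mutant heart lay below every control heart, mutant 5 coming nearest to control 5. The means were 24.3 ± 3.49 RPKM in mutant and 39.5 ± 3.50 RPKM in control hearts, so mutant hearts held 61.7% of the control level (log2 change −0.68 ± 0.12 SE). The change was −0.51 in the 4 hearts left without control 2 and mutant 8. Because BNIP3L acts in red cell maturation, erythroid transcripts were set beside it. The summed RPKM of 11 erythroid genes in the table was 11738, 21072 and 13703 in mutants 5, 8 and 10 and 16596, 13985 and 16111 in controls 2, 5 and 9, with overlapping genotypes. The part of this variation in Bnip3l was not tested.

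Fundc1, the receptor regulated mainly through its protein, showed no separation. Fundc1 (ENSMUSG00000025040, chromosome X, 17556564 to 17572325, minus strand) measured 11.7, 8.33 and 9.79 RPKM in mutants 5, 8 and 10, against 15.1, 9.50 and 9.69 RPKM in controls 2, 5 and 9. Control 2 stands above all other hearts, and the remaining control hearts lie within the mutant range. The means were 9.95 ± 1.71 RPKM in mutant and 11.4 ± 3.19 RPKM in control hearts (log2 change −0.17 ± 0.18 SE). Without control 2 the sign turned, to a log2 change of 0.04 ± 0.14 SE. The gene is X-linked, and mutant 8 and control 9 have almost no transcript of the chromosome Y gene Eif2s3y (0.0370 RPKM in mutant 8 and 0.00533 RPKM in control 9, against 18.8 to 27.7 RPKM in the other hearts), so each genotype has 1 heart without it. Mutant 8, lowest for Fundc1, had the highest summed 5S ribosomal RNA (184 RPKM over 27 genes), and control 2 had the lowest (10.2 RPKM). The part of that difference between libraries in the Fundc1 values was not tested.

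The balance between the receptors differed with genotype. The ratio of Bnip3 to Bnip3l RPKM was 0.713, 0.787 and 0.605 in mutants 5, 8 and 10, against 1.91, 2.04 and 2.28 in controls 2, 5 and 9. Bnip3 was thus the less abundant of the pair in each mutant heart and the more abundant in each control heart, and since both transcripts come from the same library the ratio does not depend on how libraries are scaled. Summed over Bnip3, Bnip3l and Fundc1, receptor transcripts reached 51.3 ± 7.27 RPKM in mutant and 133 ± 10.1 RPKM in control hearts. Bnip3 made up 33.2% ± 2.96 of that sum in mutant and 61.7% ± 2.90 in control hearts, and Fundc1 made up 19.4% ± 1.00 in mutant and 8.56% ± 1.84 in control hearts (SD, n = 3 each).

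**Figure D2:**
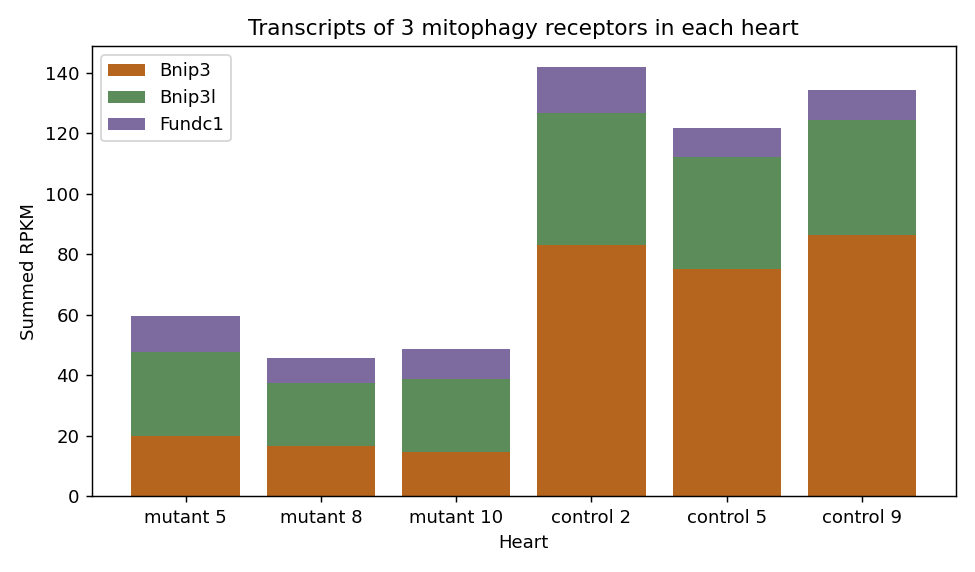
Summed RPKM of the mitophagy receptor genes Bnip3, Bnip3l and Fundc1, stacked, in each of 6 hearts, mutant hearts left of control hearts. The bars reach 45.7 to 59.5 RPKM in mutant and 122 to 142 RPKM in control hearts, and the Bnip3 part shrinks most.

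The transport gene Mgarp had the widest relative gap of the 6 genes. Mgarp (ENSMUSG00000037161, chromosome 3, 51388412 to 51396738, minus strand) measured 0.181, 0.120 and 0.142 RPKM in mutants 5, 8 and 10, against 2.10, 2.39 and 3.01 RPKM in controls 2, 5 and 9. The means were 0.148 ± 0.0311 RPKM in mutant and 2.50 ± 0.463 RPKM in control hearts (SD, n = 3 each), so mutant hearts held 5.91% of the control level. Its log2 change of −1.60 ± 0.12 SE was the third most negative of all fitted genes on log2(RPKM + 1), and it was −3.38 with a pseudocount of 0.1 and −0.54 with a pseudocount of 5. If its 2067 annotated exon bases were all used, the mutant values rest on 24.8 to 52.8 reads per heart and the control values on 566 to 764 reads. Mgarp had the lowest deposited RPKM of the 6 genes in both genotypes and stood above 0.344% of listed genes in mutant and 31.4% in control hearts (medians). Only genes reaching a geometric mean of 0.5 RPKM in a genotype are listed. Mgarp is listed through the control hearts alone, so its low place in mutant hearts partly follows from that rule. Mgarp also passed the minimum of 1 RPKM in 3 libraries through the control hearts alone, so a gene with this profile had to differ in order to be fitted.

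Fam162a had the highest deposited RPKM of the 6 genes in both genotypes. Fam162a (ENSMUSG00000003955, chromosome 16, 36043761 to 36071594, minus strand) measured 194, 180.5 and 190.1 RPKM in mutants 5, 8 and 10, against 307, 278 and 319.6 RPKM in controls 2, 5 and 9. The mutant hearts lie close together, with an SD of 3.69% of their mean, and all of them lie below the control hearts. The means were 188 ± 6.94 RPKM in mutant and 302 ± 21.3 RPKM in control hearts, so mutant hearts held 62.4% of the control level (log2 change −0.68 ± 0.09 SE). In proportion this was close to Bnip3l at 61.7%. The table names 5 exons for Fam162a, of which 4 are in GENCODE M21 and cover 387 of its 850 exon bases, so the length behind its RPKM is uncertain, which bears on its level beside other genes and not on its change. Fam162a also shares 168 exon bases with Wdr5b on the opposite strand, and whether strand was used in counting is unknown here.

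Higd1a, the partner of cytochrome c oxidase, overlapped between genotypes. Higd1a (ENSMUSG00000038412, chromosome 9, 121848563 to 121858362, minus strand) measured 5.32, 5.87 and 7.10 RPKM in mutants 5, 8 and 10, against 7.01, 6.83 and 7.65 RPKM in controls 2, 5 and 9. Mutants 5 and 8 are the lowest hearts, and mutant 10 lies within the control range. The means were 6.10 ± 0.909 RPKM in mutant and 7.16 ± 0.431 RPKM in control hearts (log2 change −0.21 ± 0.11 SE). The table counted 1 exon region for this gene, in the last exon (ENSMUSE00000364583, chromosome 9, 121848563 to 121849689), where 53 of 1127 bases are coding and the rest untranslated. The level is therefore that of 1 end of some transcripts and cannot be set against the other genes as a whole-transcript level.

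**Figure D3:**
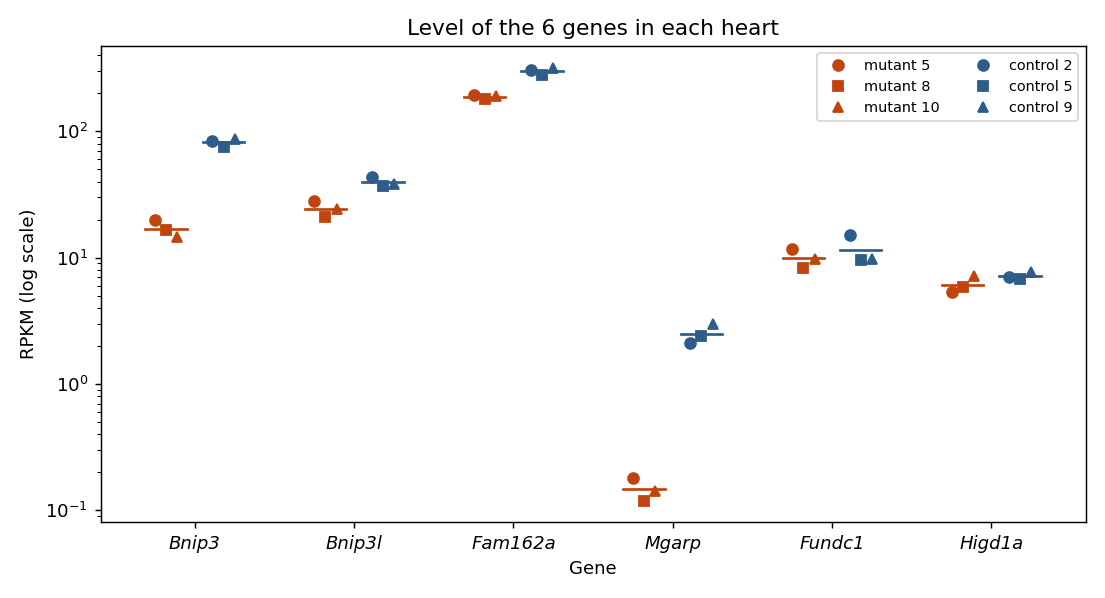
RPKM on a log axis for the 6 genes in each heart, mutant hearts in orange left of control hearts in blue, with a line at the mean of 3 hearts. Bnip3, Bnip3l, Fam162a and Mgarp separate by genotype with no overlap, and Fundc1 and Higd1a overlap.

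Counted together, 4 of the 6 genes had all mutant hearts below all control hearts, where 9.43% of all 13080 fitted genes did. That share is given only as background, since the genes were picked on this contrast. In none of the 6 did all mutant hearts lie above all control hearts. Leaving out Higd1a, whose level covers 1 exon region, the order of the levels from high to low was Fam162a, Bnip3l, Bnip3, Fundc1 and Mgarp in mutant hearts, and Fam162a, Bnip3, Bnip3l, Fundc1 and Mgarp in control hearts. Neighbours in these orders did not overlap between hearts of a genotype, and the place of Fam162a rests on its uncertain exon length. Within the mutant group, mutant 5 had the highest value of Bnip3, Bnip3l, Fam162a, Mgarp and Fundc1 and the lowest of Higd1a. Over all fitted genes the mean r of mutant 5 was 0.988 with control hearts and 0.985 with the other mutant hearts. The latter mean includes mutant 8, whose own mean r was 0.983 with the other mutant hearts and 0.977 with control hearts. These means therefore do not show that mutant 5 is nearer to control hearts than to mutant 10. The summed 5S ribosomal RNA of mutant 5 (29.8 RPKM) was within the control range of 10.2 to 69.6 RPKM.

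Some reads of Bnip3 and Bnip3l could belong to related sequences. Of the 50-base stretches in their longest GENCODE transcripts, 21.9% for Bnip3 occur in transcripts of 4 other genes and 23.4% for Bnip3l in its processed pseudogene Bnip3l-ps, none of which has a row in the table. For Higd1a the share was 7.51%, and for Fam162a, Mgarp and Fundc1 it was 0%. Bnip3 also shares 504 exon bases with the antisense gene Gm45507, and Higd1a shares 683 with Gm47112. The sources used here do not say how such reads were counted.

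The genes with the nearest profile over the 6 hearts were sought by the root mean square difference of log2(RPKM + 1) after removing each gene's own mean. Only fitted genes averaging at least 2 on that scale were compared, leaving out symbols of predicted or non-coding type (8265 genes for Mgarp and 8264 for each of the others). For Bnip3 the nearest was Pdk1, the kinase that shuts off pyruvate dehydrogenase, at 0.13 against a spread of 1.11 for Bnip3 itself. The next, the lactate exporter gene Slc16a3 and the lactate dehydrogenase gene Ldha, lay at 0.41 and 0.43. For Mgarp the nearest were Slc16a3 (0.10), the liver phosphofructokinase gene Pfkl (0.12) and Ldha (0.13), against a spread of 0.81. That nearness holds on log2(RPKM + 1), where the change of Mgarp is compressed. In RPKM the mean of Mgarp was 0.148 in mutant and 2.50 in control hearts, a wider relative gap than for Slc16a3 (6.28 and 19.8), Pfkl (10.2 and 29.5) or Ldha (216 and 565). Likeness with another pseudocount was not computed. For Fam162a the nearest were Plekha2 (0.084), the prolyl hydroxylase gene Egln1 (0.090) and the kinase gene Map2k1 (0.091), against a spread of 0.34. For Bnip3l they were Atf7ip (0.093), the neurotensin gene Nts (0.095) and the collagen lysyl hydroxylase gene Plod2 (0.099), against 0.37. Within 0.15 there was 1 gene for Bnip3, 3 for Mgarp, 21 for Fam162a and 22 for Bnip3l, so the genes named for the last 2 are not singular. Many more came as near to the flat profiles, with 641 genes within 0.15 of Fundc1 (nearest Sept7, Haus3 and Dynlt3) and 1377 within 0.15 of Higd1a (nearest Adi1, Tbc1d1 and Nelfb). The 6 hearts differ in genotype, so the likeness holds that difference and is no separate evidence for it.

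Around these genes, 6 lists of mitochondrial and autophagy genes held 129 distinct genes, of which 116 were fitted. They were drawn up with earlier results of these data known. In limma 1 of the 116 was lower past an adjusted p of 0.05 and 0 were higher, against 0.398% of all fitted genes lower, 0.42% higher and 0.818% in either direction, and their median log2 change was 0.04, against −0.03 for all fitted genes. At an unadjusted p of 0.05, 15 of the 116 genes passed, 12 of them higher, where 11.2% of all fitted genes passed, so the pooled share is near that of all genes. The passes were uneven, with 8 in the list of HIG1 family and cytochrome c oxidase assembly partners, which held 16 fitted genes.

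Other mitophagy receptors and regulators showed 0 calls in 22 fitted genes in limma (1 at an unadjusted p of 0.05), with a median log2 change of 0.03 and values between −0.23 and 0.23. The smallest p-values belonged to Nipsnap1, a mitochondrial matrix protein gene, at 10.4 ± 0.206 RPKM in mutant and 12.4 ± 0.847 RPKM in control hearts, to the cargo receptor gene Sqstm1 at 48.6 ± 3.52 and 41.4 ± 4.56 RPKM in mutant and control hearts, and to the ubiquitin ligase gene Mul1 with a log2 change of 0.18. Their limma adjusted p-values were 0.40, 0.47 and 0.55. Pink1, the kinase of the ubiquitin route of mitophagy, measured 25.7 ± 3.40 RPKM in mutant and 27.0 ± 1.51 RPKM in control hearts. Fundc2, the paralog of Fundc1, measured 30.2 ± 4.16 RPKM in mutant and 31.2 ± 3.10 RPKM in control hearts.

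In limma 0 of 33 general autophagy genes were called (1 at an unadjusted p of 0.05), with a median of −0.01 and values between −0.31 and 0.26. Among the partners that the receptors bind, Map1lc3b measured 36.2 ± 0.291 RPKM in mutant and 35.0 ± 2.10 RPKM in control hearts, Gabarap 154 ± 12.4 RPKM in mutant and 143 ± 5.24 RPKM in control hearts, and Gabarapl1 16.1 ± 0.929 RPKM in mutant and 13.9 ± 0.604 RPKM in control hearts. The lowest p-values in the list were those of Atg9a (log2 change −0.30), Gabarapl1 (0.20) and Ulk2 (−0.31), with limma adjusted p-values of 0.35, 0.46 and 0.47. Without mutant 8, Ulk2 was −0.15.

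In the BCL2 family 0 of 14 fitted genes were called in limma (0 at an unadjusted p of 0.05), and the median was −0.02. The pore former gene Bax measured 64.3 ± 14.1 RPKM in mutant and 49.1 ± 7.27 RPKM in control hearts, with overlap (log2 change 0.37, limma adjusted p = 0.45). Without mutant 8 its log2 change was 0.20. The BH3-only genes Bmf (−0.30, limma adjusted p = 0.55) and Bbc3 (0.18, limma adjusted p = 0.67) followed. Bcl2l1 and Bcl2l13 stand in this list and among the mitophagy regulators.

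In the list of mitochondrial fusion, fission and transport, 0 of 16 fitted genes were called in limma (1 at an unadjusted p of 0.05) and the median was 0.01. Mtfp1, which acts in fission, had the smallest p (6.09 ± 0.760 RPKM in mutant and 4.70 ± 0.333 RPKM in control hearts, limma adjusted p = 0.33), before Mtfr1 and the fusion gene Mfn2 (limma adjusted p = 0.56 and 0.60). The motor adaptor genes of the transport route in which MGARP acts in neurons overlapped between genotypes. Rhot1 measured 11.3 ± 1.34 RPKM in mutant and 11.1 ± 1.03 RPKM in control hearts, and Trak1 7.98 ± 0.661 RPKM in mutant and 7.70 ± 0.515 RPKM in control hearts. Their relatives lay a little farther apart, with Rhot2 at 20.4 ± 2.48 RPKM in mutant and 18.75 ± 1.54 RPKM in control hearts (log2 change 0.11). Trak2 measured 11.7 ± 1.59 RPKM in mutant and 13.0 ± 1.17 RPKM in control hearts (−0.14).

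The list around Higd1a held the only call. Cox4i2, the hypoxia-associated isoform of cytochrome c oxidase subunit 4, measured 0.449, 0.455 and 0.612 RPKM in mutants 5, 8 and 10, against 2.21, 2.33 and 3.60 RPKM in controls 2, 5 and 9. It was lower in mutant hearts, with a log2 change of −1.29 ± 0.15 SE (limma adjusted p = 0.0044). The change was −2.19 with a pseudocount of 0.1 and −0.48 with a pseudocount of 5. Over the 14 alternative settings that tested Cox4i2 the adjusted p lay between 0.0017 and 0.025. Like Mgarp, Cox4i2 passed the minimum level through the control hearts alone, so a gene with this profile had to differ in order to be fitted. Its list was also drawn up with earlier results known, so these p-values are a description and no separate support. The common isoform gene Cox4i1 measured 664 ± 36.6 RPKM in mutant and 546 ± 23.9 RPKM in control hearts (log2 change 0.28, limma adjusted p = 0.29). Of 16 fitted genes in this list 8 passed an unadjusted p of 0.05, where 11.2% of all fitted genes did. A positive log2 change was seen in 13, where 42.6% of all fitted genes had one, with a list median of 0.17, and 8 had all mutant hearts above all control hearts, as 7.6% of all fitted genes did. Cox6a1 (log2 change 0.52) and Higd2a, the paralog of Higd1a (70.0 ± 3.65 RPKM in mutant and 57.1 ± 1.43 RPKM in control hearts), had limma adjusted p-values of 0.12 and 0.24. Ndufa4l2, a hypoxia-induced relative of Ndufa4, was below the minimum level, at 0.488, 0.314 and 0.287 RPKM in mutants 5, 8 and 10 and 0.679, 1.55 and 1.16 RPKM in controls 2, 5 and 9.

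Transcripts used as marks of mitochondrial mass made up the last list. Of 17 fitted genes for outer membrane, import and matrix proteins 0 were called in limma (4 at an unadjusted p of 0.05, which 11.2% of all fitted genes passed), 15 had a positive log2 change, where 42.6% of all fitted genes did, and the median was 0.14. Citrate synthase Cs measured 170 ± 14.1 RPKM in mutant and 145 ± 7.24 RPKM in control hearts, Tomm22 67.9 ± 2.47 RPKM in mutant and 59.0 ± 2.53 RPKM in control hearts, and the adenine nucleotide carrier Slc25a4 599 ± 23.4 RPKM in mutant and 501 ± 23.5 RPKM in control hearts. Their limma adjusted p-values were 0.43, 0.43 and 0.33. The main outer membrane channel gene Vdac1 measured 234 ± 14.7 RPKM in mutant and 232 ± 7.75 RPKM in control hearts. Transcripts do not measure the amount of mitochondria.

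**Figure D4:**
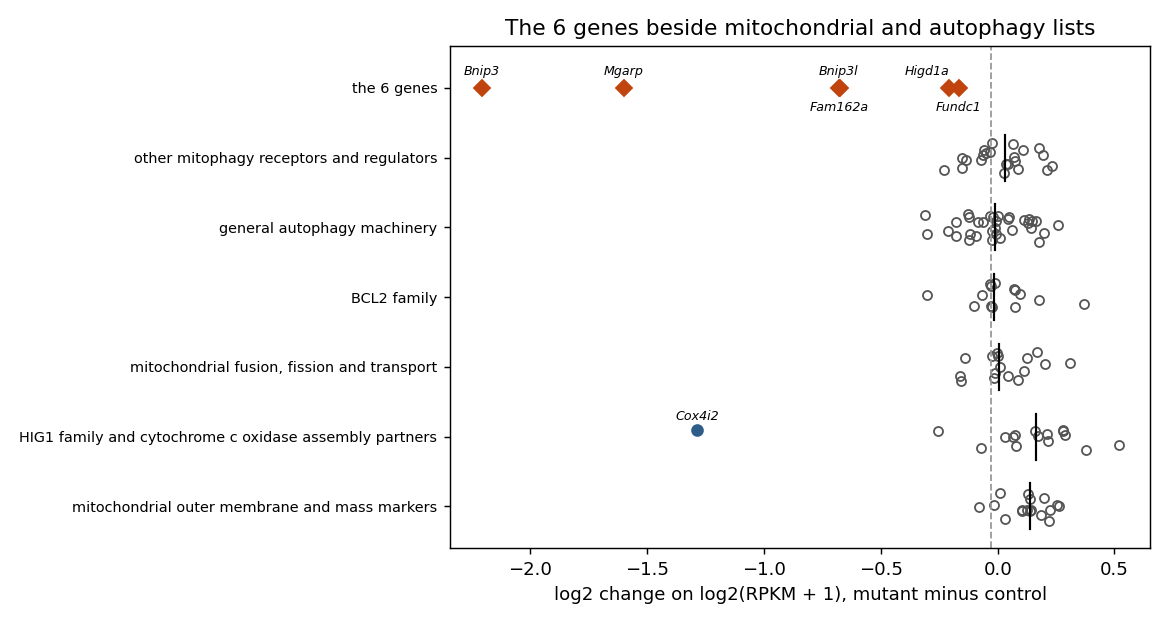
Log2 changes, mutant minus control on log2(RPKM + 1), of the 6 genes (diamonds) and of the fitted genes of 6 lists (circles), with the list median as a short line and the median of all fitted genes as a dashed line. Cox4i2 is the filled circle, the single list gene past an adjusted p of 0.05, at −1.29, and the next lowest list gene is Ulk2 at −0.31.

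The samples are whole hearts, in which fewer cells of a type and less RNA per cell cannot be told apart. All 10 cardiomyocyte markers were present, with a summed 12885 to 14848 RPKM in mutant and 11700.0 to 13507 RPKM in control hearts. A positive log2 change was seen in 8 of the 10, where 42.6% of all fitted genes had one. In 3 (Myl7, Myl4 and Actc1) every mutant heart lay above every control heart, as in 7.6% of all fitted genes. Summed macrophage markers did not overlap, with 13 genes at 12.4 to 33.3 RPKM in mutant and 39.8 to 46.6 RPKM in control hearts, nor did 12 epicardial and mesenchymal genes, at 308 to 421 RPKM in mutant and 474 to 521 RPKM in control hearts. The sums of 12 endothelial and endocardial genes overlapped, at 150.2 to 168 RPKM in mutant and 163 to 184 RPKM in control hearts. Yet 10 of these 12 had a negative log2 change, where 57.4% of all fitted genes did. In 4 of the 12 (Cldn5, Kdr, Flt1 and Cdh5) every mutant heart lay below every control heart, where 9.43% of all fitted genes did so. All 12 fitted macrophage genes had a negative log2 change (median −0.69), where 57.4% of all fitted genes did. Of these 12 genes 8 had every mutant heart below every control heart, where 9.43% of all fitted genes did. In limma 0 genes of these lists passed an adjusted p of 0.05. An unadjusted limma p of 0.05 was passed by 10 of 12 macrophage, 5 of 12 epicardial and mesenchymal and 4 of 12 endothelial genes, all lower in mutant hearts. It was also passed by 3 of 10 cardiomyocyte genes, all higher in mutant hearts, and by 0 of 9 erythroid genes. Of all fitted genes 11.2% passed it. Of the 12 epicardial and mesenchymal genes 2, Col1a1 and Col1a2, had every mutant heart below every control heart, where 9.43% of all fitted genes did. The summed level of this list came mostly from Col1a1, Col1a2, Col3a1 and Postn. The epicardial markers Wt1, Upk3b, Aldh1a2, Tbx18 and Tcf21 overlapped between genotypes, with log2 changes of −0.13, 0.04, −0.01, −0.25 and −0.22. A negative log2 change was seen in 11 of the 12 epicardial and mesenchymal genes, where 57.4% of all fitted genes had one. The part of these cell types in the levels of the 6 genes was not tested.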

How the data were processed

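RNA of 6 whole hearts was sequenced from libraries made with Illumina protocols, per the labels. Per the submitters' processing notes the tools included Trim Galore and TopHat2 and the build was mm10. The counter, annotation and strandedness remain not given in the sources used here. Values deposited are RPKM made by the authors, a unit taken from the values since no header names it. The table lists genes reaching a geometric mean of 0.5 RPKM in a genotype. In single-block genes, values times exon length fell within 0.1 of whole steps for 78.7% to 86.8% of low values, against about 18.9% to 19.9% (medians) for other steps, which gives the implied reads.

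The planned test was limma 3.58.1 in R 4.3.3 on log2(RPKM + 1), its prior variance following the mean level, for 13080 genes reaching 1 RPKM in 3 or more libraries, all 6 hearts, no covariates, Benjamini-Hochberg adjusted p under 0.05, two-sided. The 6 genes and the lists were chosen with earlier results of these data known, so p-values of the 6 genes are not given, although they were part of the fit. List genes named are those past the threshold, the 3 with the smallest p of each list, and further partners and paralogs (Pink1, Fundc2, Map1lc3b, Gabarap, Rhot1, Rhot2, Trak1, Trak2, Cox4i1, Vdac1 and Ndufa4l2) chosen after their values were seen. Symbols that a spreadsheet had turned into dates were restored from gene identifiers. Coordinates are from GENCODE M21 (mm10). The fit was tested on simulated data. Tables and figures used Python 3.11.15 and matplotlib 3.10.9. Alternatives were median centring, other minimum levels, pseudocounts of 0.1 and 5, limma without trend, rescaling without haemoglobin genes and leaving out each heart. A pair of 4-heart fits was added after seeing the data.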

Additional observations from a re-analysis of the deposited data

How the results depend on the processing

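No paired analysis was possible because the genotypes share only 1 sample number. Bnip3, Bnip3l, Fam162a, Mgarp and Higd1a stayed lower in mutant hearts in every setting that fitted them, and Mgarp could not be fitted with a minimum of 5 RPKM. With each heart left out in turn their log2 changes ranged from −2.32 to −2.11 for Bnip3, −0.78 to −0.58 for Bnip3l, −0.73 to −0.63 for Fam162a, −1.68 to −1.50 for Mgarp and −0.31 to −0.13 for Higd1a. Fundc1 ranged from −0.28 to 0.037, the value without control 2, and was 0.15 in the 4 hearts without control 2 and mutant 8, where Bnip3l was −0.51. A pseudocount of 5 gave −1.98 for Bnip3 and −0.54 for Mgarp, and 0.1 gave −3.38 for Mgarp, with Cox4i2 at −0.48 and −2.19, which follows from how the pseudocount weighs low values. With 1 heart left out, the log2 changes of the uncalled genes among the 18 named list genes shrank most in proportion for Bbc3 (0.051 without mutant 8). Ulk2 (−0.15 without mutant 8), Bmf (−0.16 without control 5), Mfn2 (0.087 without control 2) and Bax (0.20 without mutant 8) came next. Bbc3 turned to −0.017 without control 2 and mutant 8. For 18 named list genes, 264 values under alternatives kept their direction and side of the threshold and 1, that of Bbc3, did not. The count of 107 called genes (55 higher, 52 lower) ranged from 45 without control 5 to 198 without mutant 5 (46 without mutant 10, 62 without control 2, 68 without control 9; 28 to 88 higher, 16 to 110 lower), and was 54 (28 higher, 26 lower) in the 4 hearts that express Eif2s3y from chromosome Y. Median centring left 57 higher and 34 lower genes, and rescaling without haemoglobin genes 54 higher and 79 lower. The list call, Cox4i2, was absent (0 calls) with a minimum of 5 RPKM, where its level is too low to be tested. The causes were not tested otherwise. The mutant level of Mgarp rests on few reads, and the level of Higd1a on a single exon region. The part of either in the precision of the changes was not tested.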
